A study of Brassica napus with 12 samples.

Results

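Levels were described for 1361 genes in a pair of chromosome segments of Brassica napus (rapeseed): 643 with IDs from BnaA10g12730D to BnaA10g25160D, called the A10 segment, and 718 with IDs from BnaC09g35230D to BnaC09g50090D, called the C9 segment. They were taken from the 43708 genes listed for all 12 libraries, and 3 genes inside the ID ranges were left out by rule. The ranges were chosen by the read counts themselves, because in line R8Q10 levels were lower along A10 and higher along C9 than in the other lines, so every difference of R8Q10 in the segments is given as a description and was not tested. The material was immature seed of 4 inbred genotypes, A28, R8Q10, SW and YH25005, taken 24 days after pollination from field-grown plants whose inflorescences were bagged for selfing, with 3 libraries per line and no treatment. The labels call the tissue seeds and the extraction text speaks of embryos, none of the 19 tissue markers looked up could be matched to an ID, and the tissue was therefore not checked. The series is about seed linolenic acid, but the labels do not say which line is high or low in it. Whether the libraries of a line came from separate plants is not stated, so a p-value here reflects the spread among these libraries alone, and that spread may be technical.

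B. napus is an allotetraploid that joined an A subgenome related to that of turnip and a C subgenome related to that of cabbage. Each A chromosome has homoeologous stretches among the C chromosomes, and the distal parts of A10 and C9 are such a pair. Homoeologous chromosomes can recombine in rapeseed, and a stretch of one can then stand in place of the corresponding stretch of the other, a change known as a homoeologous exchange. The genome of R8Q10 was not analysed here, and the values below are RNA levels. The files give no gene names or functions, so members are given by ID, whose number follows the order along a chromosome in the annotation that made it. In a reference table of another assembly, Da-Ae, 21 A10 members and 49 C9 members could be matched by ID. All of them lay on the chromosome named in the ID, and the rank correlation of ID order and reference order was 1 in both segments.

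Library totals ran from 30150457 to 40762254 counts, and 3 counts, the limit that a count of 0 allows, stood for 0.0736 to 0.0995 CPM (the count relative to the library total) depending on depth, for counting error only. CPM below are scaled by TMM factors, which lay between 0.766 and 0.914 in YH25005 and between 1.00 and 1.14 in the other lines. Genes are ranked by abundance only by the FPKM that the authors deposited, which account for gene length. Sums of CPM over members, and the part of a sum that some members hold, do not account for it. The coefficient of variation between replicates over all genes was 0.264 in YH25005, 0.340 in R8Q10, 0.352 in SW and 0.499 in A28. The sources used here do not say how reads that match both homoeologues were counted. The list of measured genes also shaped the segments: of the genes with IDs in the ranges but on the list of only 1 pair of lines, the A10 segment had 14 listed for A28 and R8Q10 alone and 102 listed for SW and YH25005 alone, against 52 and 16 in the C9 segment. These genes were not analysed here. Of the A10 members, 523 (81.3%, against 3.32% of all genes) exceeded 1 CPM in no R8Q10 library and were thus listed through A28, so counts over the members are not support for a difference.

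In R8Q10 the A10 segment was far below and the C9 segment above its level in the other lines, which had similar totals for both. The summed level of the A10 members was 1188 ± 258 CPM in R8Q10, with 14441 ± 1134 in A28, 15938 ± 762 in SW and 13349 ± 396 for YH25005 (mean ± SD, n = 3 each). R8Q10 thus held 8.15% of the mean of the other lines, 14576 CPM. The summed level of the C9 members was 27707 ± 1860 CPM in R8Q10, with 16799 ± 696 in A28, 18185 ± 655 in SW and 16271 ± 557 for YH25005. Here R8Q10 stood at 162% of the mean of the others, and the lowest R8Q10 library, at 26072 CPM, lay above the highest of the other libraries, at 18788 CPM. R8Q10 minus the mean of the others was -13388 CPM for the A10 sum and 10622 CPM for the C9 sum. Both segments together came to 28895 ± 2113 CPM in R8Q10, with 31240 ± 1817 in A28, 34123 ± 1397 in SW and 29620 ± 952 for YH25005. The R8Q10 sum over both was 91.3% of the mean of the others. On this TMM scale its libraries overlapped with those of A28 and YH25005, but as shares of all counts, given below, they did not.

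**Figure D1:**
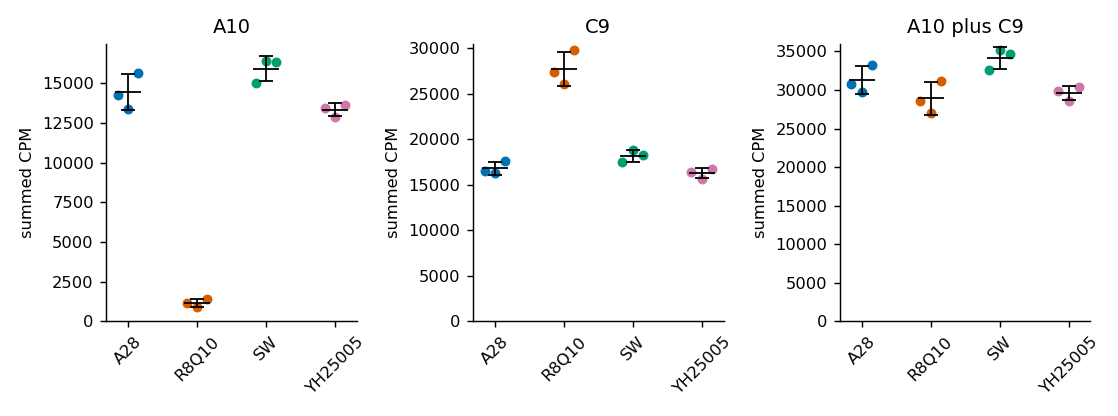
Summed CPM of the A10 members, the C9 members and both together, with 1 point per library and the mean ± SD of the 3 libraries of each line. R8Q10 lies near 1188 CPM on A10 and near 27707 CPM on C9, and in the sum of both it overlaps with A28 and YH25005.

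The share of all counts in the segments was also lowest in YH25005 among A28, SW and YH25005. These lines were the other side of the difference that chose the ranges. The A10 segment held 1.57% ± 0.0591 of counts in A28, 1.64% ± 0.0248 in SW and 1.09% ± 0.0758 for YH25005 (SD, n = 3). Since most A10 members were listed through A28, one of the lines compared, no test is given for this share or for the share of both segments together, which was 2.42% in YH25005, 3.51% in SW and 3.40% in A28. The C9 segment held 1.83% ± 0.00851, 1.87% ± 0.0106 and 1.33% ± 0.0864 in A28, SW and YH25005 and differed between them (exact permutation test over the 1680 partitions, one-sided, n = 3 per line, p = 0.00357, the smallest these partitions can give, and 0.00536 adjusted over 3 shares). The 52 C9 genes listed for A28 and R8Q10 alone are not in it. Without the 50 most abundant genes of each library, the C9 shares were 1.72% in YH25005, 1.84% in SW and 1.83% in A28, a gap between lines of 0.122 in place of 0.541 percentage points (exact permutation test, adjusted p = 0.0321, against 0.00357 to 0.0107 under the other alternatives). The gap on A10 likewise went from 0.548 to 0.230 percentage points and that of both segments from 1.09 to 0.341, with YH25005 still lowest. With TMM scaling the A10 and C9 sums of YH25005 stood much closer to those of A28, as given above. Leaving out the TMM factors shifts every gene by 0.41 in A28 minus YH25005 and 0.33 in SW minus YH25005 on the log2 scale. The permutation test on C9 shares thus cannot tell the segment from the genes of a library as a whole. Its members were also chosen from these counts, so its p-values are a description. R8Q10 held 0.129% ± 0.0222 of its counts on A10, 3.02% ± 0.0735 on C9 and 3.15% on both. Its share on both, 3.09 to 3.25% per library, lay below every A28 library (3.35 to 3.46%) and above every YH25005 library (2.33 to 2.61%).

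Along A10 the low level ran from one end of the range to the other. R8Q10 was at least 2-fold below the mean log level of the other lines in 624 of 643 members (97.0%), against 10.4% of all genes, the contrast that chose the range. In 599 members every R8Q10 library was below every other library (6.78% of all genes). The median difference in level on the log2 scale was -9.08, with quartiles of -11.10 and -5.16, against 0.01 over all genes. For the 300 members with 0 counts in R8Q10 (1.34% of all genes had 0 counts there) the fitted difference depends on the prior count, and with these members at the limit of 3 counts per line the median was -7.35. Per library, R8Q10 had 0 counts for 356 to 374 members, A28 for 0, SW for 0 to 1 and YH25005 for 2 to 5.

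When the members were cut into 33 windows of 20 in ID order, a description chosen after values had been seen, the median R8Q10 level was under 1% of the mean of the other lines in 25 windows. It reached 5% in 4 windows. The highest was the window from BnaA10g15370D to BnaA10g15690D at 16.7% (16.4, 17.7 and 13.1% in the 3 R8Q10 libraries). The windows from BnaA10g16060D to BnaA10g16430D and from BnaA10g16440D to BnaA10g16880D stood at 8.05 and 5.06%, and the window from BnaA10g21260D to BnaA10g21620D stood apart from these at 7.29%. The low level was thus not even: a stretch of 80 members from BnaA10g15370D to BnaA10g16880D held 46 of the 133 members at 5% or more, and 12 of its members had at most 3 R8Q10 counts, as did 366 of all 643 members and 1.59% of all genes. Summed over this stretch, R8Q10 had 258 ± 24.8 CPM, against 2087 ± 318 for A28, 1734 ± 73.4 for SW and 1838 ± 51.6 for YH25005. The other lines showed no such step, with window medians from 5.69 to 22.5 CPM in A28, 4.15 to 25.8 in SW and 3.74 to 20.1 in YH25005.

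**Figure D2:**
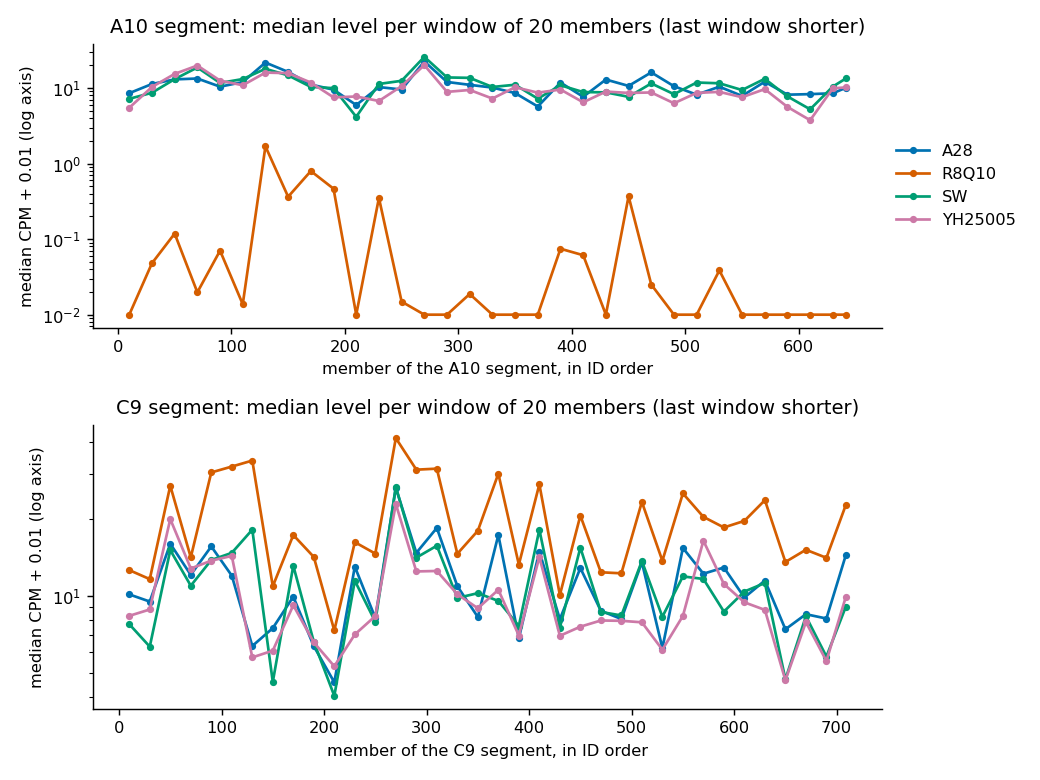
Median CPM (plus 0.01, log axis) of each line in windows of 20 members in ID order, for the A10 segment above and the C9 segment below. On A10 the R8Q10 medians run between 0 and 1.68 CPM with the other lines between 3.74 and 25.8 CPM, and on C9 the R8Q10 line runs above the others.

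The R8Q10 signal on A10 fell into classes. Beside the 300 members with 0 counts, 66 had 1 to 3 counts over the 3 libraries, 72 had more than 3 counts but under 1% of the mean of the other lines, 72 had 1 to 5%, 116 had 5 to 50% and 17 had 50% or more. The last 17 held 52.2% of the segment's summed R8Q10 CPM and the 116 before them held 44.1%. Which members had signal was much alike in the R8Q10 libraries: 104 members reached 5% of the other lines in every one and 157 in at least 1, and the Spearman correlations of CPM over the 643 members between the libraries were 0.846, 0.853 and 0.866 (across genes, which are not independent replicates). The percentage kept had no relation to the FPKM of the other lines (Spearman -0.00197 over the members). How much of this signal came from reads of other loci was not tested. Of all genes, 1.34% had 0 R8Q10 counts and 1.59% at most 3. The shares of all genes in the other classes and at the 5% level were not computed.

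Most of the leading A10 members, by mean FPKM over A28, SW and YH25005, were among those with little or no R8Q10 signal. BnaA10g20610D had 0.0527, 0 and 0.146 CPM in R8Q10, with 259, 342 and 381 in YH25005, 995, 1706 and 1656 in SW and 224, 253 and 284 in A28. This gene led the segment at 1224 FPKM in the other lines and had 7 R8Q10 counts in all. BnaA10g12800D, near the start at 275 FPKM, had 109, 58 and 304 CPM in A28, 66.4, 45.9 and 88.2 in SW and 26.2, 55.3 and 58 in YH25005, and R8Q10 had 0 counts. Its level in the other lines was at least 3252-fold higher, against 3 counts over the R8Q10 libraries and on CPM without TMM scaling. BnaA10g19670D had 0 CPM in every R8Q10 library, with 77, 79.8 and 78.7 in YH25005, 329, 658 and 424 in SW and 359, 595 and 306 in A28, which is at least 11919.7-fold higher in the mean of the other lines by the same limit.

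Neighbours in this group behaved alike or not. BnaA10g14240D and BnaA10g14250D follow each other, and both had over 100 CPM in every library of the other lines. BnaA10g14240D had 1.05, 10.1 and 1.46 CPM in R8Q10, with 182, 208 and 289 in YH25005, 641, 546 and 431 in SW and 399, 364 and 505 in A28, so that R8Q10 replicate 2 held most of what was left. In BnaA10g14250D the R8Q10 libraries had 0, 0.18 and 0 CPM against 201, 237 and 185 in A28. BnaA10g20530D kept 0.301% of the mean of the other lines. The abundant members BnaA10g20420D and BnaA10g15900D kept more: 23.5% and 24.9%. BnaA10g15900D had 64.4, 39.8 and 65.4 CPM in R8Q10, with 142, 162 and 181 in YH25005, 243, 187 and 224 in SW and 319, 134 and 455 in A28. Every R8Q10 library of this gene lay below every other library.

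Expression was kept on A10, by a mean of at least 1 CPM in R8Q10 and a log2 difference from the other lines above -1, in 17 of 643 members (2.64%), against 88.5% of all genes. They held 52.5% of the segment's R8Q10 CPM. No member of the group had another as its neighbour, and the longest gap between them was 110 members. In order they were BnaA10g13870D, BnaA10g15400D, BnaA10g15690D, BnaA10g16440D, BnaA10g16580D, BnaA10g17560D, BnaA10g17690D, BnaA10g18320D, BnaA10g19040D, BnaA10g20220D, BnaA10g20630D, BnaA10g20890D, BnaA10g21240D, BnaA10g21330D, BnaA10g21580D, BnaA10g21950D and BnaA10g23960D. By difference, the member nearest to the limit on the inside was BnaA10g17690D at -0.98, and BnaA10g17340D at -1.10 was the nearest one outside.

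A single gene made up 32.8% of the R8Q10 level of the whole segment. BnaA10g21240D had 384, 241 and 545 CPM in R8Q10, with 46.2, 80.9 and 66.2 in YH25005, 19.6, 12.3 and 40.0 in SW and 258, 163 and 218 in A28. R8Q10 was at 388% of the mean of the other lines, overlapped with A28 and was far above SW and YH25005. The other lines also differed here: by edgeR's quasi-likelihood test A28 exceeded SW by 3.15 ± 0.47 (SE, adjusted p = 0.000774) and YH25005 by 1.72 ± 0.45 (SE, adjusted p = 0.0159) on the log2 scale. The second of these did not pass without YH25005 replicate 1 or 3 (adjusted p = 0.0702 and 0.0549). BnaA10g20890D had 166, 50.5 and 55.5 CPM in R8Q10, with 5.06, 22.7 and 8.46 in YH25005, 102, 59.8 and 169.6 in SW and 79.3, 83.3 and 36.6 in A28. In this gene too the R8Q10 libraries overlapped with A28 and SW and lay above YH25005, from which SW differed by 3.19 ± 0.69 (SE, adjusted p = 0.00565). In both genes the R8Q10 libraries varied more than 2-fold among themselves.

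In other kept genes the R8Q10 libraries overlapped with those of SW and YH25005. BnaA10g15400D had 36.9, 31.7 and 32.8 CPM in R8Q10, with 38.2, 41.5 and 30.2 in YH25005, 34.8, 33.9 and 34.3 in SW and 40.5, 42.5 and 29.3 in A28. R8Q10 stood at 93.6% of the mean of the other lines, inside their range. BnaA10g18320D had 29.8, 24.8 and 32.5 CPM in R8Q10, with 24.6, 27.8 and 24.8 in YH25005, 27.9, 24.3 and 24 in SW and 37.2, 40.8 and 24.3 in A28. No contrast among A28, SW and YH25005 passed in edgeR's test for either gene, with adjusted p of 0.738, 0.918 and 0.759 for BnaA10g15400D and 0.218, 0.168 and 0.962 for BnaA10g18320D. BnaA10g20220D had 7.66, 6.82 and 9.99 CPM in R8Q10, with 8.37, 7.52 and 10.5 in YH25005, 10.8, 7.12 and 10.3 in SW and 13.4, 12.7 and 22.8 in A28. R8Q10 kept 71% of the mean of the other lines. A28 lay above YH25005 in every library, by 0.89 ± 0.28 (SE, adjusted p = 0.0355) on the log2 scale in edgeR's test, but the call did not pass without A28 replicate 3 (adjusted p = 0.121) or without YH25005 replicate 1, 2 or 3 (0.108, 0.106 and 0.0522).

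A further set sat lower than the other lines without vanishing. BnaA10g15690D had 12.1, 12.5 and 15.7 CPM in R8Q10, with 18.2, 16.1 and 16.4 in YH25005, 29.8, 31 and 37.3 in SW and 26.3, 22.6 and 17.1 in A28. The R8Q10 libraries were all below those of the other lines, with 56.2% of their mean. BnaA10g17690D kept 50.1% and BnaA10g16580D kept 51.2%, the latter with 2.32, 2.9 and 2.43 CPM in R8Q10 against 3.06, 2.45 and 2.87 in SW and 7, 5.77 and 8.06 in YH25005. R8Q10 and SW overlapped in that gene. BnaA10g20630D (5.32, 3.24 and 6.65 CPM in R8Q10) and BnaA10g21330D (5.85, 5.76 and 5.92) were above the mean of the other lines, at 168% and 169%, both at under 10 CPM in every library. Of the 17 kept members, 9 passed in at least 1 of the 3 contrasts among the other lines, against 210 of all 643 A10 members and 41.2% of all genes.

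**Figure D3:**
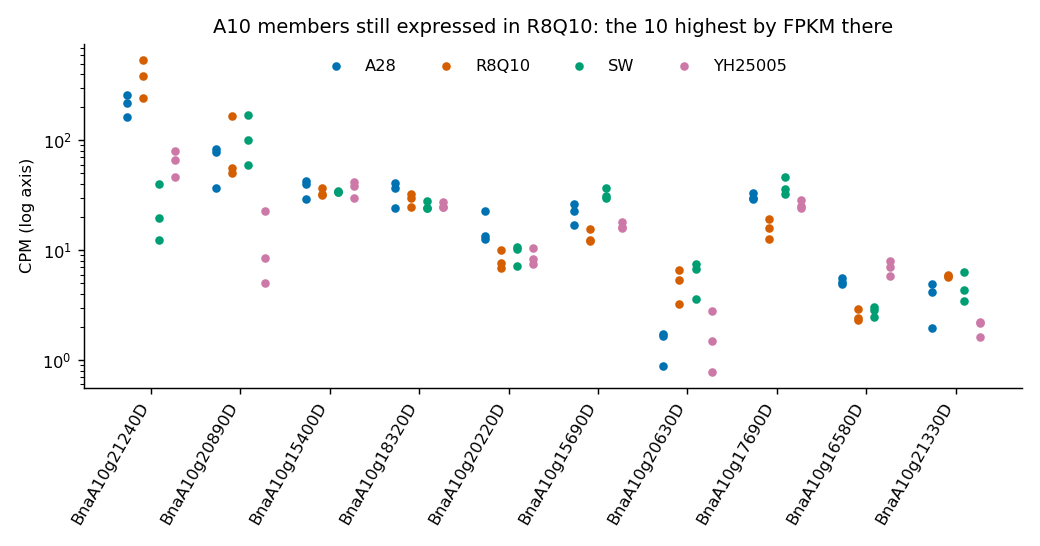
CPM (log axis) per library of the 10 kept A10 members with the highest FPKM in R8Q10, by line. BnaA10g21240D reaches 545 CPM in R8Q10 while SW stays at or under 40.0 CPM, and BnaA10g15400D lies between 29.3 and 42.5 CPM in all 12 libraries.

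On C9 the higher level in R8Q10 was moderate and present along the whole range. R8Q10 was above the mean log level of the other lines in 660 of 718 members (91.9%), against 50.4% of all genes, in the contrast that chose the range. The median log2 difference was 0.86, with quartiles of 0.52 and 1.18. As a percentage of the mean of the other lines, the median member had 173% in R8Q10, with quartiles of 134 and 215%. The difference lay between 0.5 and 1.5 in 458 members (16.5% of all genes) and was larger in 86 (6.38% of all genes). In 282 members every R8Q10 library was above every other library (4.88% of all genes). No C9 member had 3 or fewer counts in R8Q10.

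Windows of 20 C9 members all had a median log2 difference above 0, from 0.62 (BnaC09g36460D to BnaC09g36760D) to 1.32 (BnaC09g38120D to BnaC09g38460D). The difference was similar at all levels: in the lowest, middle and highest of 3 equal groups by FPKM in the other lines the median was 0.85, 0.88 and 0.82, with interquartile ranges of 0.79, 0.58 and 0.66. The Spearman correlation of difference and FPKM over the members was -0.0811. The spread between members was widest in the lowest group.

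**Figure D4:**
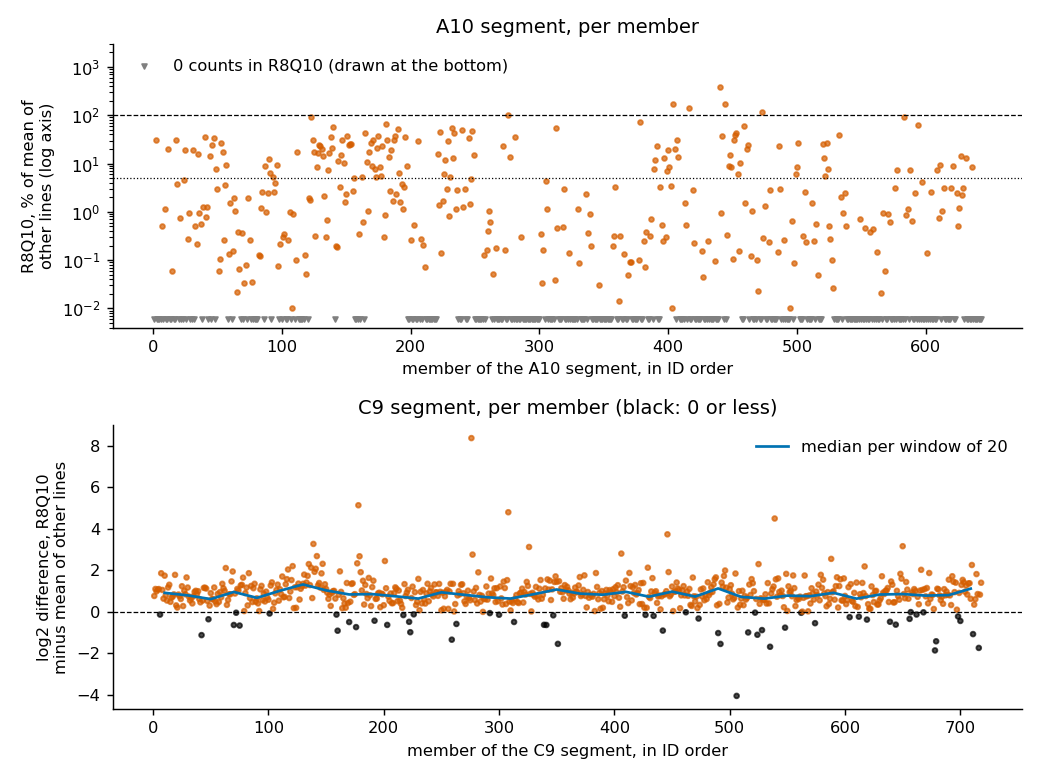
Each point is 1 member in ID order. Above, the R8Q10 level as a percentage of the mean of the other lines on A10 (log axis, with 100% and 5% marked, and the 300 members with 0 counts drawn at the bottom). Below, the log2 difference of R8Q10 from the mean of the other lines on C9, with window medians between 0.62 and 1.32.

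Abundant C9 members showed every kind of outcome. BnaC09g44450D had 916, 834 and 1974 CPM in R8Q10, with 377, 510.2 and 498 in YH25005, 592, 448 and 355 in SW and 685, 308 and 1017 in A28. R8Q10 replicate 3 exceeded all other libraries and its other replicates exceeded all but 1 A28 library, and R8Q10 had 233% of the mean of the other lines. BnaC09g44830D, at 138, 116 and 90.1 CPM in R8Q10 and 63.9, 79.5 and 104 in A28, had 158%. BnaC09g47880D had 205, 261 and 138 CPM in R8Q10, with 681, 422 and 568 in YH25005, 88.7, 105 and 64.3 in SW and 69.1, 77.9 and 39.2 in A28. Here R8Q10 was above A28 and SW and below YH25005, so its log2 difference was 0.49 with 85.7% of the arithmetic mean.

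The most abundant C9 member was not higher in R8Q10. BnaC09g41380D had 259, 185 and 160.1 CPM in R8Q10, with 78.2, 201 and 65.6 in YH25005, 344, 440.1 and 369 in SW and 589, 747 and 520.2 in A28. R8Q10 lay below A28 and SW and overlapped with YH25005, at a log2 difference of -0.58. BnaC09g44630D and BnaC09g42450D were led by SW: BnaC09g42450D had 1469, 2256 and 1659 CPM in SW and 572, 819 and 423 in R8Q10, which overlapped with A28 and YH25005. BnaC09g44630D had 293, 498 and 353 CPM in SW and 81.5, 165 and 65.3 in R8Q10. BnaC09g44940D had 376, 110.0 and 117 CPM in R8Q10, with 8.52, 49.5 and 15.3 in YH25005, 426, 221 and 366 in SW and 155, 287 and 169 in A28. Its level in R8Q10 was 106% of the mean of the others, with 1 R8Q10 library above 300 CPM and the others near 110.

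In all, 58 of 718 C9 members (8.08%) had a log2 difference of 0 or less, against 49.6% of all genes. In 50 of them the R8Q10 mean lay within the range of the other 9 libraries, and in 4 every R8Q10 library was below every other one. They were scattered, with 4 adjacent pairs and a longest gap of 58 members, and 11 of them were under 1 CPM in at least 1 line. The other lines differed among themselves in 35 of the 58 (at least 1 of 3 contrasts passed), against 268 of all 718 C9 members and 41.2% of all genes. In SW minus YH25005, 25 of the 58 passed as higher and 3 as lower, against 13.6% and 13.1% of all genes. These contrasts share libraries with the difference that selected the 58, so the counts are a description.

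The C9 members furthest below are given for those with at least 1 CPM in each of the other lines, 657 in all. BnaC09g46090D had 0.237, 0.203 and 1.03 CPM in R8Q10, with 2.76, 5.12 and 2.2 in YH25005, 12, 11.9 and 10.7 in SW and 12.9, 9.59 and 16.7 in A28. R8Q10 held 5.24% of the mean of the other lines, and all of its libraries were below all others. Several of the lowest members were at the level of YH25005 rather than below it. BnaC09g50050D had 18.8, 24.7 and 13.3 CPM in R8Q10, with 18.4, 13.1 and 18.2 in YH25005, 106, 171 and 93.2 in SW and 95.1, 157 and 117 in A28. R8Q10 overlapped with YH25005, and A28 exceeded YH25005 by 2.89 ± 0.33 (SE) on the log2 scale. The gene was picked on a difference that includes both of these lines, so no test is given. BnaC09g43250D had 85.5, 108 and 53.4 CPM in R8Q10 and 80.9, 72.2 and 78.6 in YH25005, against 409, 613 and 309 in A28 and 289, 559 and 357 in SW.

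BnaC09g49230D was likewise low in R8Q10 and YH25005. It had 2.19, 1.62 and 2.52 CPM in R8Q10, 2.33, 2.81 and 3.05 in YH25005, 9.75, 7.44 and 8.9 in A28 and 8.29, 6.22 and 7.98 in SW. A28 exceeded YH25005 by 1.67 ± 0.25 (SE) on the log2 scale, and no test is given for the same reason. In BnaC09g46770D the R8Q10 libraries, at 1.19, 1.19 and 1.38 CPM, were below all others, whose lowest was a YH25005 library at 1.87 CPM. BnaC09g45790D had 5.85, 4.3 and 14.1 CPM in R8Q10 and 9.42, 1.29 and 12.6 in YH25005, which overlapped, and 79.1, 83.1 and 61.6 in SW. BnaC09g41280D and BnaC09g46590D, at log2 differences of -1.34 and -1.10, had under 10 CPM in every library.

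At the other extreme, the largest differences among the same 657 members came from genes in which A28, SW and YH25005 also parted. BnaC09g38450D had 109, 103 and 109 CPM in R8Q10, with 1.52, 2.31 and 2.36 in YH25005, 224, 201 and 160.0 in SW and 1.36, 1.65 and 7.02 in A28. R8Q10 was thus far above A28 and YH25005 and below SW. BnaC09g44320D had 35, 38.4 and 35.4 CPM in R8Q10, with 1.91, 1.13 and 1 in YH25005, 22.4, 22.9 and 17.6 in SW and 3.85, 7.24 and 3.53 in A28. In this gene R8Q10 was above all other libraries, with SW next. BnaC09g41610D had 18.5, 21.3 and 25 CPM in R8Q10, 11.7, 8.8 and 8.78 in SW and at most 3.24 in A28 and YH25005. BnaC09g48700D had 28.1, 73.1 and 59.8 CPM in R8Q10 and 27.5, 27.4 and 19.5 in YH25005, with A28 and SW at under 6 CPM.

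The ends of the ranges, which the rule set from these levels, were read from the neighbours. On A10 the first 3 members had R8Q10 levels of 0, 31.3 and 0% of the other lines (BnaA10g12730D, BnaA10g12750D and BnaA10g12780D), and the genes just before stood at 106, 19.6 and 0.743% (BnaA10g12720D, BnaA10g12710D and BnaA10g12660D). Their log2 differences, which average the other lines on the log scale, were 0.15, 0.15 and -7.05, so only the last was low on both measures. In the 20 genes before the A10 segment the median was 129.6%, in the first and in the last 20 members 0%, and in the 20 genes after 79.8%. On C9 the medians were 82.5% in the 20 genes before, 179% in the first 20 members, 191% in the last 20 and 107% in the 20 after. IDs after the ranges do not all continue the chromosome: of 11 A10 IDs after the range that the reference places on A10, 4 lay beyond the matched members, 6 before them and 1 among them. Among all 254 A10 genes with later IDs, 57 (22.4%) were at least 2-fold lower in R8Q10, against 10.4% of all genes.

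Single members differed widely among A28, SW and YH25005. The shares of members that passed are given beside those of all genes, with no test of the difference, and genes missing from the list of A28 and R8Q10 could not be among the members. In A28 minus SW, 61 of 643 A10 members (9.49%) and 89 of 718 C9 members (12.4%) passed in edgeR's quasi-likelihood test at the adjusted p threshold of 0.05, against 15.4% of all genes. On A10, 26 were higher in A28 and 35 lower, and on C9 39 and 50 (7.5% and 7.9% of all genes), but without TMM scaling the split was 33 and 28 on A10 and 43 and 41 on C9. The median difference was 0.04 on A10 and 0.06 on C9, against 0.06 over all genes. In A28 minus YH25005, 146 A10 members (22.7%) and 170 C9 members (23.7%) passed, against 27.2% of all genes, with medians of 0.17 and 0.18 against 0.06. Of these, 94 A10 and 108 C9 members were higher in A28 and 52 and 62 lower (14.5% and 12.7% of all genes), as against 197 and 264 higher and 29 and 34 lower without TMM scaling. In SW minus YH25005, 126 A10 members (19.6%) and 177 C9 members (24.7%) passed, against 26.7% of all genes, with medians of 0.14 and 0.10 against a value within 0.01 of 0 over all genes.

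Of the SW minus YH25005 calls, 80 A10 and 106 C9 members were higher in SW and 46 and 71 lower (13.6% and 13.1% of all genes), as against 149 and 191 higher and 30 and 40 lower without TMM scaling. Leaving out the TMM factors shifts every gene by 0.41 in A28 minus YH25005, by 0.33 in SW minus YH25005 by 0.08 in A28 minus SW and by 0.17 in R8Q10 minus the others on the log2 scale. Single libraries moved some A10 counts: 61 became 32 without A28 replicate 1, 95 without A28 replicate 2, 34 without SW replicate 1 and 28 without SW replicate 2. The A28 minus YH25005 count of 146 became 76 without YH25005 replicate 1 and 82 without YH25005 replicate 3, and that of SW minus YH25005 became 80 without YH25005 replicate 1. On C9 the A28 minus YH25005 count of 170 became 96 and 97 without YH25005 replicates 1 and 3.

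On A10 the widest differences from YH25005 were in genes at or near 0 there as in R8Q10. Members near 0 in R8Q10 were listed through A28. Genes near 0 in both of these lines could not be members, so the direction of these differences is not a result about YH25005. BnaA10g22910D had 0 CPM in every R8Q10 library, with 0 in every YH25005 library, 5.43, 3.35 and 6.24 in SW and 4.85, 5.06 and 9.37 in A28. By the limit of 3 counts over the YH25005 libraries, A28 was at least 241-fold higher on unscaled CPM. With 0 counts in R8Q10 and YH25005 the gene was listed through A28 and SW, where it is high, so no test is given. BnaA10g22140D had 0 CPM in every R8Q10 library, with 0 in every YH25005 library, 3, 3.92 and 2.51 in SW and 5.86, 2.15 and 1.68 in A28. A28 was at least 123-fold higher than YH25005 by the same limit, and again no test is given. BnaA10g20870D had a single YH25005 library above 0, at 0.0563 CPM, against 3.65, 1.06 and 5.85 CPM in A28.

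A28 was the low line in others. BnaA10g22010D had 0.0527, 0 and 0.0586 CPM in R8Q10, with 9.18, 13.7 and 9.06 in YH25005, 46.3, 22.1 and 34 in SW and 2.27, 2.38 and 1.21 in A28. A28 minus SW was -4.12 ± 0.44 (SE, adjusted p = 5.2e-05) and A28 minus YH25005 -2.44 ± 0.41 (SE, adjusted p = 0.00145) on the log2 scale in edgeR's test. BnaA10g20560D had 14.6, 22.7 and 21.7 CPM in R8Q10, with 57.5, 81.9 and 106 in YH25005, 104, 300.3 and 264 in SW and 5.08, 18.9 and 4 in A28, with A28 minus SW at -4.58 ± 0.65 (SE, adjusted p = 0.000504). BnaA10g23780D had 0 CPM in every R8Q10 library, with 193, 91.7 and 196 in YH25005, 89.1, 190.2 and 91.1 in SW and 4.01, 27.7 and 2.38 in A28, where A28 replicate 2 stood well above the other A28 libraries. Its difference between A28 and SW, -3.44 ± 0.89 (SE, adjusted p = 0.0284), did not pass without A28 replicate 1 (adjusted p = 0.0821) or without SW replicate 2 (adjusted p = 0.0832).

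Some calls came in runs of neighbours, picked here after values were seen. Among stretches of 10 A10 members the most calls in 1 direction, 7, were for lower levels in A28 than in SW from BnaA10g20560D to BnaA10g20770D, where the median stretch had 0. Of all genes, 7.9% were called lower in this contrast. The summed level of the stretch was 35.5 ± 4.57 CPM in R8Q10, with 314 ± 36.1 in A28, 1757 ± 501 in SW and 506 ± 79.3 for YH25005. BnaA10g20610D, the most abundant member, lies in it and alone held 254 CPM of this in A28, 1452 in SW and 327 in YH25005. From BnaA10g16680D to BnaA10g16930D 6 of 10 members were called higher in A28 than in SW, against 7.5% of all genes. In SW minus YH25005, 6 were called lower and 1 higher, against 13.1% and 13.6% of all genes. The summed level there was 6.01 ± 0.685 CPM in R8Q10, with 257 ± 22.7 in A28, 151 ± 13.4 in SW and 262 ± 17.95 for YH25005. BnaA10g16880D alone held 175 CPM of this in A28, 88.1 in SW and 161 in YH25005.

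On C9 the widest differences were presence against absence. BnaC09g41600D had 17.1, 16.6 and 16.6 CPM in R8Q10, with 0 in every YH25005 library, 10.4, 9.69 and 9.37 in SW and 0 in every A28 library. SW was at least 341-fold above A28 and 352-fold above YH25005 by the limit of 3 counts over a line's libraries on unscaled CPM. With 0 counts in A28 and YH25005 the gene was listed through R8Q10 and SW, where it is high, so no test is given. BnaC09g39490D had 5.98, 9.39 and 10.7 CPM in R8Q10, with 0.0389, 0 and 0 in YH25005, 10.1, 11.6 and 36 in SW and 0, 0 and 0.159 in A28. SW and R8Q10 were again the lines with signal. In the gene before it, BnaC09g39460D, SW was the line without: it had 0, 0 and 0.296 CPM in SW, 9.57, 5.59 and 6.77 in A28, 10.6, 5.81 and 13.5 in R8Q10 and 12.6, 6.81 and 11.2 in YH25005.

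YH25005 stood apart in other C9 members. BnaC09g44910D had 3.11, 0.135 and 1.23 CPM in R8Q10, with 0 in every YH25005 library, 3.52, 2.45 and 4.85 in SW and 6.72, 1.18 and 6.16 in A28. A28 was at least 176-fold above YH25005 by the same limit. With 0 counts in YH25005 the gene was on the list of SW and YH25005 through SW, so no test is given. BnaC09g44890D, also with 0 counts in YH25005, had 4.41, 3.35 and 2.8 CPM in A28 and 6.03, 1.13 and 6.65 in R8Q10. Both lie in a stretch of 10 members from BnaC09g44870D to BnaC09g45070D. This stretch had 6 members called higher in A28 than in YH25005 and 1 called lower, against 14.5% and 12.7% of all genes. Its summed level was 447 ± 139.8 CPM in R8Q10, with 354 ± 63.9 in A28, 465 ± 116 in SW and 155 ± 8.54 for YH25005. The single gene BnaC09g44940D gave 338 CPM of this for SW, 204 for A28, 201 for R8Q10 and 24.4 for YH25005. BnaC09g41160D had 1.08, 2.21 and 1.14 CPM in R8Q10, with 40.7, 30.5 and 42.4 in YH25005, 0.193, 0.15 and 0 in SW and 0, 0.265 and 0.0635 in A28. YH25005 alone thus expressed this gene above 3 CPM, with A28 minus YH25005 at -8.47 ± 0.88 (SE) on the log2 scale. On the list of SW and YH25005 it was listed through YH25005, where it is high, so no test is given.

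The stretch with the most calls on C9 parted the lines in a way seen in the single genes above. From BnaC09g38340D to BnaC09g38450D, 8 of 10 members were higher in SW than in YH25005 and 7 were lower in A28 than in SW, where the median stretch had 1 and 0. Of all genes, 13.6% and 7.9% were called in these directions. In the 13 members from BnaC09g38340D to BnaC09g38510D, a run also picked after values were seen, 9 passed in both contrasts with SW as the higher line. The share of all genes that did so was not computed and cannot exceed 7.9%. The summed level was 553 ± 102 CPM in R8Q10, with 116 ± 28.7 in A28, 397 ± 23.0 in SW and 183 ± 25.4 for YH25005. Every R8Q10 library was above every A28 and YH25005 library in 10 of the 13, and the share of all genes for this order was not computed. BnaC09g38430D showed the pattern, with 4.65, 4 and 6.39 CPM in A28, 35.2, 27.3 and 37.5 in R8Q10, 25.3, 26.7 and 31 in SW and 3.35, 2.7 and 3.41 in YH25005. BnaC09g38470D went against it, with 6.42, 18.5 and 24.4 CPM in SW and 139, 95.7 and 84 in YH25005. The window with the largest R8Q10 difference on C9, given above, overlaps this run, so that low levels in A28 and YH25005 enter its value.

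**Figure D5:**
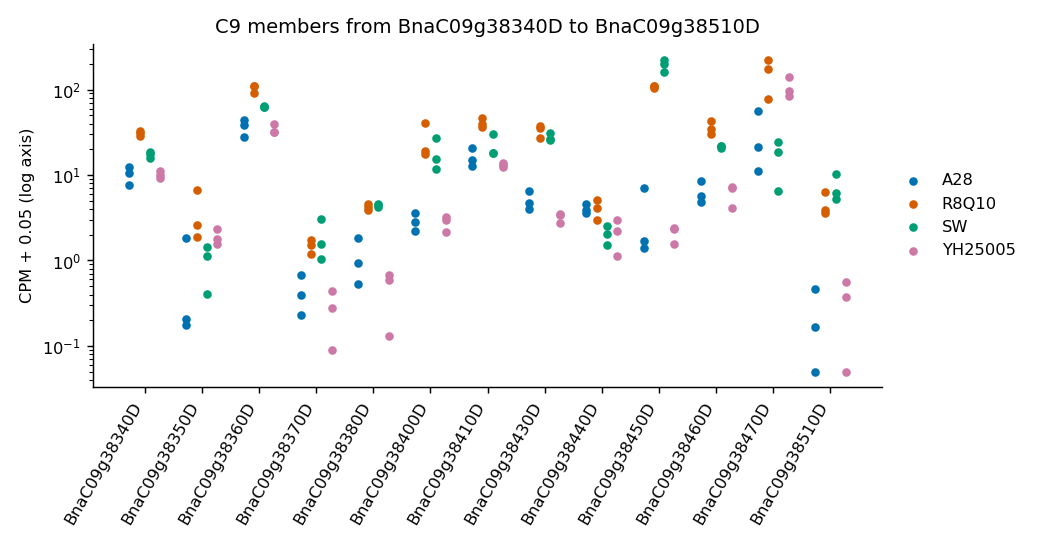
CPM plus 0.05 (log axis) per library of the 13 C9 members from BnaC09g38340D to BnaC09g38510D, by line. R8Q10 and SW lie together above A28 and YH25005 in most members, widest in BnaC09g38450D, and BnaC09g38470D shows another order.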

How the data were processed

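Poly-A RNA libraries were made with a kit protocol that does not mention strand and sequenced as read pairs, per the labels' protocols, so overlapping or antisense genes cannot be told apart. Bcl2fastq, HISAT2 and DESeq2 are named by the submitters' processing notes. The sources used here name no build, annotation or counter. Per the file headers, each file deposited by the authors holds raw counts and FPKM values per gene for 1 library; FPKM entered no test. Files came with 2 gene lists, and the 43708 shared genes were used with library totals over all listed genes.

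Counts were fitted with edgeR 4.0.16 (R 4.3.3; TMM, quasi-likelihood F test, 1 coefficient per line, 12 libraries, filterByExpr, which removed 0 genes), with Benjamini-Hochberg adjustment over all genes at 0.05, and tested on simulated data. Shares of counts were tested by exact permutation. Named genes were the most abundant by FPKM, the kept, the lowest and highest C9 members, and the widest called contrasts; others were chosen after values were seen. The members and lists were chosen with earlier results of these data known. Alternatives were other scalings, filters, thresholds, reference lines, DESeq2 1.42.0, subsets of lines, a replicate block and leaving out each library. No sequences of the members were in the reference tables used.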

Additional observations from a re-analysis of the deposited data

How the results depend on the processing

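Without TMM scaling the A10 median difference of R8Q10 was -8.96 and the C9 median 1.02, and the A28 minus YH25005 calls were 226 on A10 and 298 on C9. With DESeq2 the A10 median was -9.02 and the A28 minus SW calls on A10 were 108. Against A28 alone the medians were -9.18 and 0.76, against SW alone the A10 median was -9.29, and against YH25005 alone they were -8.92 and 0.96. Members on C9 that were not raised numbered 96 against A28 alone, 104 against SW alone, 85 against YH25005 alone and 98 at a limit of 0.25 in place of 0. They numbered 43 without TMM scaling, 82 without R8Q10 replicate 2 and 53 without A28 replicate 2. A limit of -2 in place of -1 gave 50 kept A10 members. Fits of only A28 and SW called 30 A10 and 46 C9 members, of only SW and YH25005 197 on A10, and of only A28 and YH25005 103 on C9. Leaving out 1 library gave A10 medians from -9.36 to -9.01 and C9 medians from 0.859 to 0.895. It gave 28 to 95 A10 calls in A28 minus SW, 76 to 197 in A28 minus YH25005 and 80 to 161 in SW minus YH25005, and 96 to 241 C9 calls in A28 minus YH25005. Calls went up in some of these fits and down in others, and the causes were not tested. No median changed sign, but without TMM scaling the A28 minus SW calls went from 26 higher and 35 lower to 33 and 28 on A10 and from 39 and 50 to 43 and 41 on C9. Of 499 combinations of a named gene's contrast and an alternative, none changed sign, 489 kept their side of the threshold and 10 lost the call: 3 of BnaA10g23780D in A28 minus SW, and 5 of BnaA10g20220D and 2 of BnaA10g21240D in A28 minus YH25005. Fits of only the lines compared gave an adjusted p of 0.0792 for BnaA10g23780D and 0.0758 for BnaA10g20220D. DESeq2 gave BnaA10g23780D no adjusted p in that contrast, and it is not counted here.

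Replicate numbers are shared by the lines, with no label saying that they mark a plant or day. Deviations of same-numbered libraries correlated from -0.351 to 0.636 (median 0.0726 over 18 pairs), and only the pairs of A28 and R8Q10, between which nothing was tested, were all over 0.1. With a replicate block the medians were -9.09 and 0.87, the kept A10 members 17 and the C9 members not raised 62; calls moved by less than 1.5 times, to 50, 140 and 124 on A10 and 87, 184 and 193 on C9.

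Depth limits the A10 members with few R8Q10 counts: a count of 0 allows a level of up to 0.0773 to 0.0917 CPM in an R8Q10 library, and levels of 1 to 3 counts carry a large counting error.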

Other observations

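A few abundant A10 members had a C9 member with a similar pattern of levels over the libraries of A28, SW and YH25005. They were matched by eye on these values, and whether they are homoeologues was not tested. BnaA10g19670D had 359, 595 and 306 CPM in A28, 329, 658 and 424 in SW and 77, 79.8 and 78.7 in YH25005. BnaC09g43250D had 409, 613 and 309, 289, 559 and 357 and 80.9, 72.2 and 78.6 CPM in the same lines. In R8Q10 the A10 gene had 0 counts and the C9 gene 85.5, 108 and 53.4 CPM, close to YH25005.

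A second such pair was BnaA10g20420D and BnaC09g44450D. The A10 gene had 626, 298 and 964 CPM in A28 and the C9 gene 685, 308 and 1017, and in both the A28 libraries differed over 2-fold in the same order. In SW they had 347, 277 and 199 and 592, 448 and 355 CPM and in YH25005 163, 198 and 191 and 377, 510.2 and 498, also in the same order. In R8Q10 they had 53.5, 44.8 and 157 and 916, 834 and 1974 CPM, with replicate 3 the highest in both. Another pair was less alike. BnaA10g20890D had 166, 50.5 and 55.5 CPM in R8Q10, with 5.06, 22.7 and 8.46 in YH25005, 102, 59.8 and 169.6 in SW and 79.3, 83.3 and 36.6 in A28. BnaC09g44940D, given above, had the same replicate highest in R8Q10, YH25005 and A28, but in SW replicate 1 was its highest and replicate 3 that of BnaA10g20890D, and in A28 their lowest replicates differed.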
